A study of Homo sapiens with 31 samples.

Results

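KLF2, KLF4, KLF5, KLF6, KLF9, KLF10 and KLF11 are 7 genes of the Krüppel-like factor (KLF) family, and their mRNA was followed under 7 treatments and in untreated cells of H460, a long-established line from a human non-small cell lung tumour. The members were taken by gene symbol as 7 of the 74834 rows of the expression table. They were chosen by the measured expression values of these same libraries, because KLF2 stood out when Nutlin-3 was added to B87 and DMKG, so every value that involves that triple treatment is given as a description without a test.

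All cells were harvested 6 h after treatment, and poly(A) RNA was sequenced. The 8 groups were B87+DMKG+Nutlin-3 (n = 4), B87+DMKG+Rita (n = 4), B87+DMKG (n = 4), DMKG (n = 4), B87 (n = 4), Nutlin-3 (n = 3), Rita (n = 4) and Control (n = 4). B87, a compound from Bayer, is an inhibitor of complex I of the respiratory chain, used at 1 µM. DMKG is dimethyl α-ketoglutarate, a cell-permeable ester of a tricarboxylic acid cycle intermediate, used at 5 mM. Nutlin-3, used at 30 µM, blocks the pocket of MDM2 that holds p53, and Rita, used at 50 µM, is described as a p53-binding compound. The study's title groups both as MDM2 inhibitors and concerns whether they reverse the transcriptional effects of DMKG with B87. Control cells were untreated, and the labels name no vehicle. Each sample joined cells from 2 wells of the same line, and the labels do not say whether replicates came from separate cultures, so p-values measure only the spread between these samples. Medium, serum and culture conditions were common to all groups.

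KLF proteins bind GC-rich and CACCC-type DNA through zinc fingers at their C-terminus, and differ in whether they recruit activators or repressors. KLF2 and KLF4 are best known as growth-restraining factors. KLF2 is induced in endothelium through the kinases MEK5 and ERK5 and the MEF2 factors, and takes its older name, lung Krüppel-like factor, from its expression in lung. KLF5 promotes growth of epithelial cells, KLF6 is described as a growth suppressor, KLF9 is induced by steroid and thyroid hormones, and KLF10 and KLF11 were found as early genes of transforming growth factor β (TGF-β) that recruit the SIN3A corepressor.

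Library depth was 33441414 to 82493612 recovered reads, with a median of 63089433. The keratin genes KRT8, KRT18 and KRT19 of epithelial cells had medians of 100807, 68026.5 and 109654 normalized reads over the 31 libraries, whereas EPCAM had a median of 52.0 and the cadherin gene CDH1 at most 8.21. Of 7 endothelial markers, 1 passed the filter on low values, KDR, at up to 61.5, and the defining genes PECAM1 and CDH5 stayed at or under 3.51 and 2.07. The leukocyte gene MS4A1 was listed at 0 throughout, PTPRC reached 7.80, and CD14 ranged between 47.0 and 273. Of the fibroblast markers, COL1A1 was at 385 to 947, LUM at 97.3 to 261, PDGFRB at 109 to 282 and DCN at 0 to 24.9. Values are the authors' DESeq2-normalized read counts, called normalized reads here. In bulk RNA, fewer cells with a transcript and less transcript per cell cannot be told apart.

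The region upstream of each member's start is shown for the 3 genes that DMKG raised most, KLF2, KLF4 and KLF6. RefSeq windows of GRCh38.p14, from 250 bases before to 50 bases after an annotated start, were searched for 6 of the 7 members, in 8 windows. No window of KLF10 was searched. Capitals mark GC boxes (GGGCGG) and a MEF2 site. These and 10 other motifs were searched on both strands, among them the CACCC box (CCACCC), the TATA box (TATAAA), the CCAAT box, the cyclic AMP response element, the AP-1 site, the CArG box and a p53 motif, which are not marked.
KLF2: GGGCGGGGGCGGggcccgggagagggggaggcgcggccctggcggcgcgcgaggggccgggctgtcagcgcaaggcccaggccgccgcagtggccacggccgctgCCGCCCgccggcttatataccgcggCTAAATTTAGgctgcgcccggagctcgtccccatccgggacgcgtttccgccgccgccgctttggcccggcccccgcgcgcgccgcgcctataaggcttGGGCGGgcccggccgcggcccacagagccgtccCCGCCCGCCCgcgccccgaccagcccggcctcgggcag
KLF4: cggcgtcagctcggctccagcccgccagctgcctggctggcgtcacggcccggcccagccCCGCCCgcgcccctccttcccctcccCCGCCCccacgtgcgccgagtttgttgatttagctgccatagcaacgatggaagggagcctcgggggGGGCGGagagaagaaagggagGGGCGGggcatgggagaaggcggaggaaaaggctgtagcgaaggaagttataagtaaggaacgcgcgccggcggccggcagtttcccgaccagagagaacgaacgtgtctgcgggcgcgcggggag
KLF6: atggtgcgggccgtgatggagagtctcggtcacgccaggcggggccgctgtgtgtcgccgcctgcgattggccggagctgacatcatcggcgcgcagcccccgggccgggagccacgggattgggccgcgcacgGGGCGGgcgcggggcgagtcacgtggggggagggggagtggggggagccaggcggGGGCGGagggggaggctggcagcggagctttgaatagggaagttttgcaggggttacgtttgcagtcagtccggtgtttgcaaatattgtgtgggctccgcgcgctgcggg
The KLF2 window (chr19:16324576-16324875, plus strand) was 80.7% G or C and held 6 GC boxes. It also held 1 MEF2 site, at positions -120 to -111 with the annotated start as position 0. The MEF2 motif was found in 2.99% of all 35114 RefSeq windows of this length and in no other of the 8 windows searched for members. The KLF4 window (chr9:107489720-107490019, minus strand) was 69% G or C with 4 GC boxes, and the KLF6 window (chr10:3785160-3785459, minus strand) was 70.7% G or C with 2. GC boxes were found in 45.0% of all windows, whose median content of G or C was 58.7%. The KLF9 window (32.7% G or C) and 1 of the 2 KLF5 windows (40.7%) held no GC box, the other KLF5 window (71.3%) held 2, and the 2 KLF11 windows (77.3% and 75.3%) held 2 and 7. Among the unmarked motifs, 1 KLF11 window held a full cyclic AMP response element, found in 1.85% of all windows. An E-box (CACGTG), found in 7.26% of all windows, was in the KLF4 and KLF6 windows and 1 KLF11 window. CCAAT boxes were in the KLF6 and KLF9 windows and 1 KLF5 window. No member window held a CACCC box, AP-1 site, CArG box or p53 motif. A letter match describes these windows only and is not evidence that a factor bound there.

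In the table, on hg19, KLF2 lies at 16435637 to 16439472 of chromosome 19, KLF4 at 110247135 to 110252001 of chromosome 9 and KLF6 at 3818189 to 3827473 of chromosome 10. None of the 7 member rows overlapped another row. Per kilobase of exon (GENCODE v29), Control means were 906 normalized reads for KLF10, 719 for KLF4, 375 for KLF5, 159 for KLF2, 147 for KLF6, 46.0 for KLF9 and 35.5 for KLF11. All 7 passed the filter of a mean of at least 10 normalized reads, which kept 16259 rows.

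**Figure D1:**
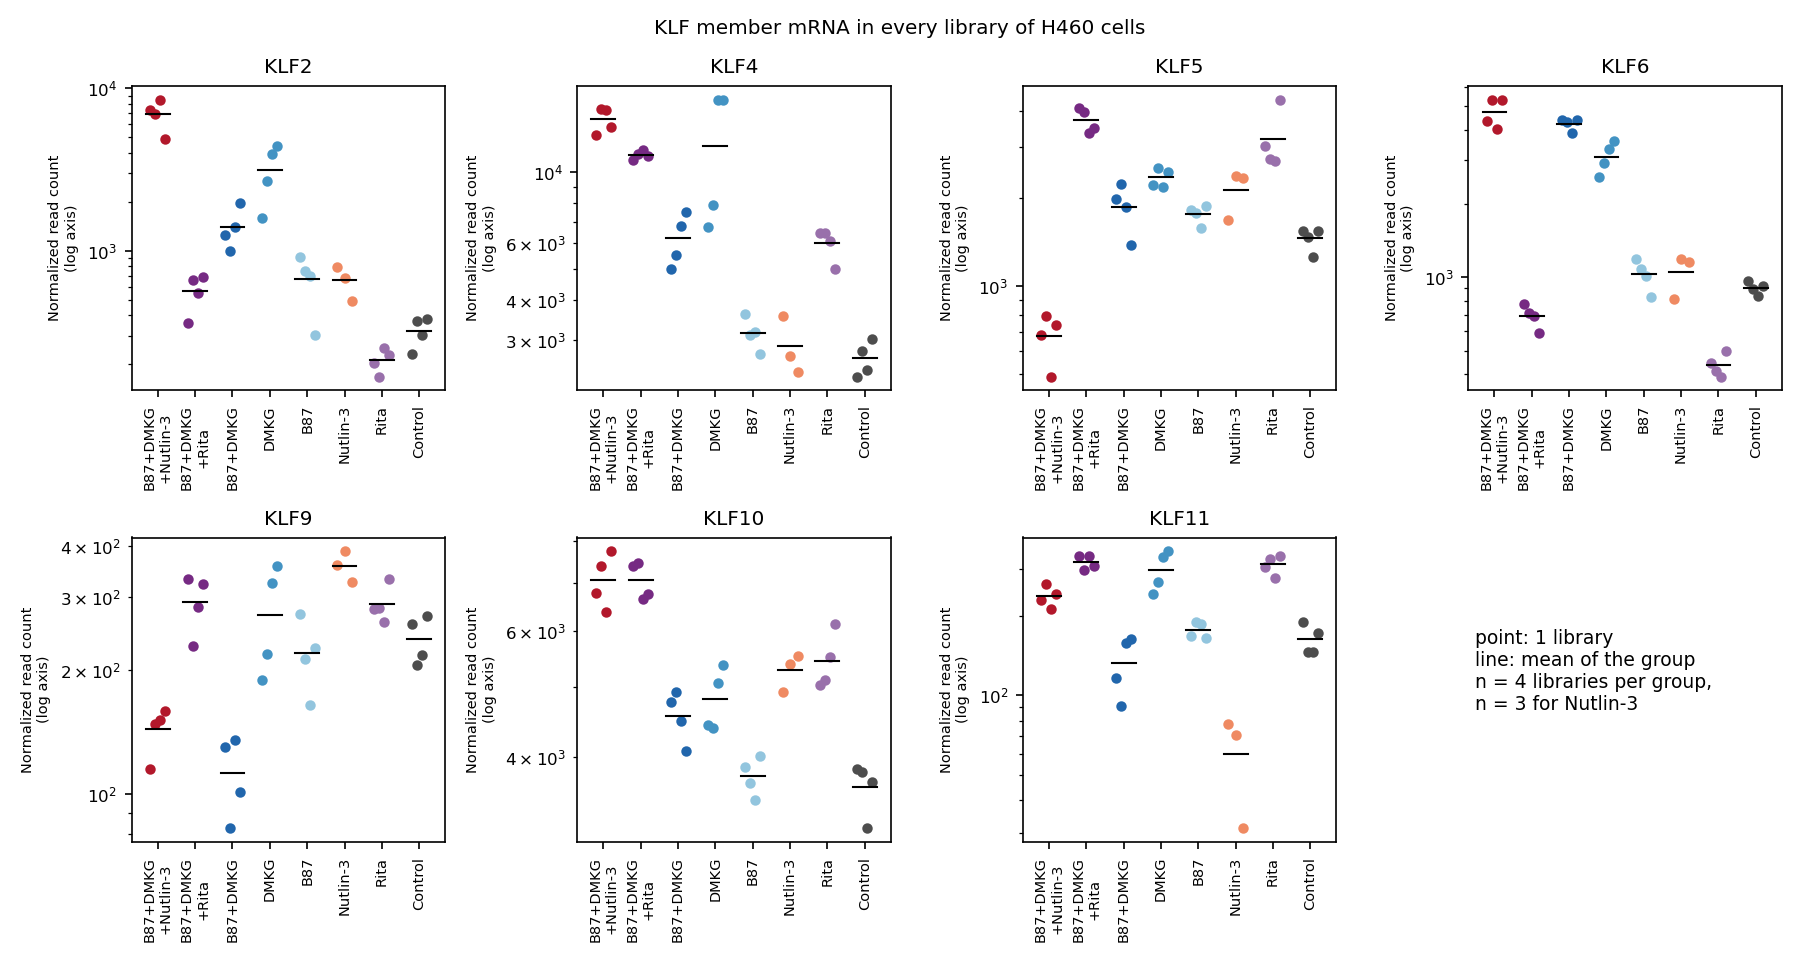
Normalized read counts (log axis) of the 7 KLF members in each of the 31 libraries, by treatment, with a line at each group mean. KLF2 sits between 4902 and 8492 in B87+DMKG+Nutlin-3, above every other library, while KLF5 sits lowest there.

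KLF2 was lowest under Rita, at 168 normalized reads, and highest in B87+DMKG+Nutlin-3, at 8492. It had 7328, 6981, 8492 and 4902 normalized reads in the B87+DMKG+Nutlin-3 libraries, against 231, 369.8, 304 and 379 in Control. B87+DMKG+Rita libraries had 358, 664, 551 and 690.4, and B87+DMKG libraries had 1248.5, 989, 1402 and 1975. DMKG alone gave 1601, 2705, 3936 and 4388. The Nutlin-3 triple treatment thus lay above all other groups without overlap, and DMKG overlapped B87+DMKG. B87 libraries had 914, 753, 696 and 303 normalized reads, Nutlin-3 libraries 795, 679.9 and 493, and Rita libraries 202, 168, 252 and 228. These last 3 groups and B87+DMKG+Rita spanned 168 to 914 together with Control, and neighbours in that order overlapped: B87 with Nutlin-3, Nutlin-3 with B87+DMKG+Rita, B87+DMKG+Rita with Control and Control with Rita.

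In B87+DMKG+Nutlin-3 the members went separate ways, given here as the values by which KLF2 was picked and those beside it. KLF2 averaged 6926 ± 1496 normalized reads there and 321 ± 68.9 in Control (SD, n = 4 each), a log2 difference of 4.43 ± 0.29 (SE). KLF4, a factor used to reprogram somatic cells, had 13047, 15731.5, 15626 and 13825, against 2310.3, 2773, 2418 and 3024 in Control, a log2 difference of 2.47 ± 0.19. KLF6 had 4359, 5302, 4034 and 5311, against 961, 892, 838 and 916 in Control. KLF10 averaged 7066 ± 619, against 3628 ± 309 in Control, and KLF11 237 ± 21.4, against 163 ± 21.2. In the same libraries KLF5 was low, with 680.0, 792, 491 and 736 normalized reads, against 1549, 1478, 1263 and 1547 in Control, and KLF9 averaged 143 ± 19.5, against 238 ± 31.2. None of the 7 members overlapped Control, which was also true of 58.1% of all rows, and nothing is read from that count.

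Set against B87+DMKG without Nutlin-3, the triple treatment held 4.99-fold the KLF2 level and 2.36-fold the KLF4 level on the log2(value + 1) scale. Against Nutlin-3 alone the KLF2 level was 10.5-fold, and none of the 7 members overlapped, as for 56.9% of all rows. KLF6 differed little from B87+DMKG, at 4752 ± 654 with Nutlin-3 and 4246 ± 239 without (SD, n = 4 each), and these groups overlapped. KLF5 was lower by a log2 difference of -1.47 ± 0.15 (SE), at 675 ± 131 in B87+DMKG+Nutlin-3 and 1876 ± 365 in B87+DMKG. KLF11 and KLF10 were higher, by 0.87 ± 0.20 and 0.63 ± 0.08, and KLF9 by 0.37 ± 0.18 with overlapping groups. In 5 of the 7 the groups did not overlap, as in 47.7% of all rows. The Nutlin-3 difference with B87+DMKG minus that without it, on the log2 scale and without a test, was 1.29 ± 0.43 for KLF2 (2.32 with, 1.03 without) and 1.13 ± 0.29 for KLF4 (1.24 with, 0.12 without). For KLF11 and KLF5 the Nutlin-3 difference had opposite signs: KLF11 read 0.87 with B87+DMKG and -1.52 without, and KLF5 -1.47 with and 0.54 without.

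**Figure D2:**
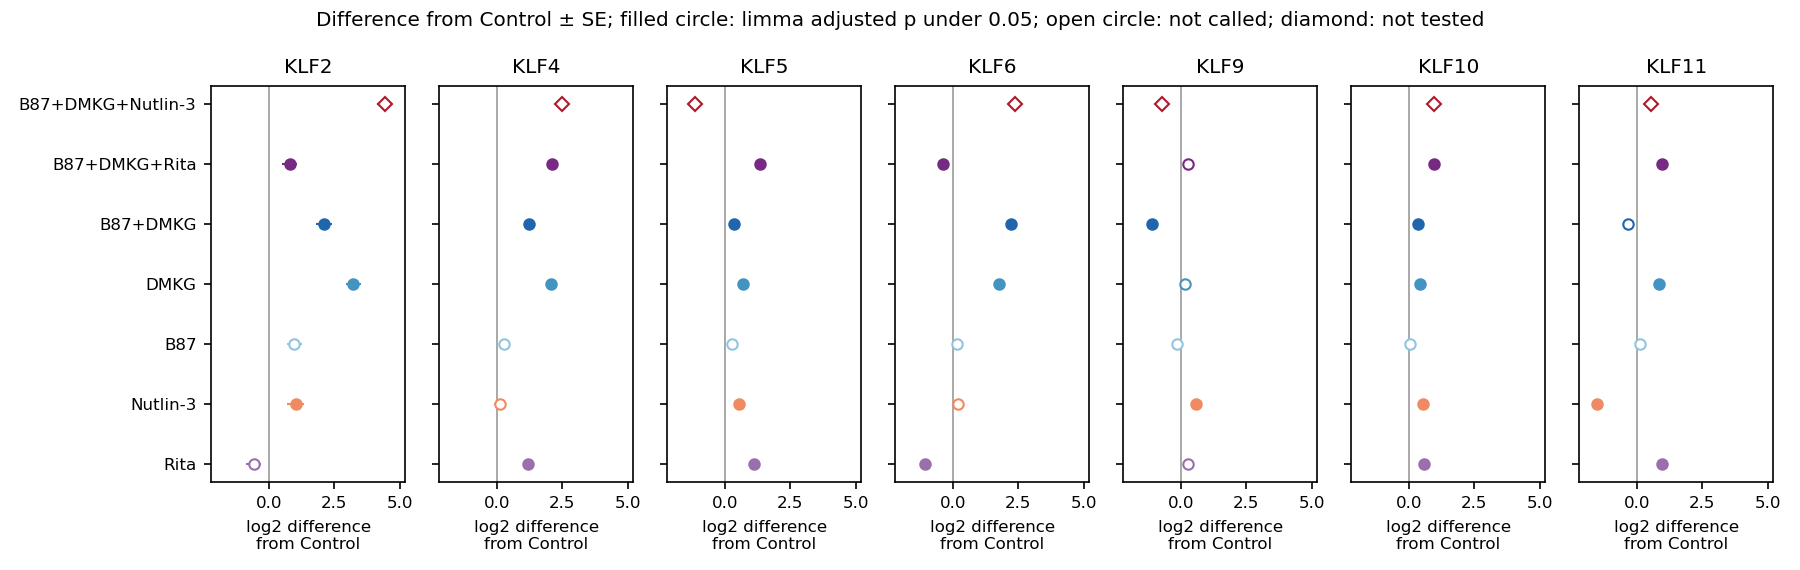
Log2 difference from Control ± SE (x axis) of each KLF member under the 7 treatments (rows). KLF2 runs from -0.58 under Rita to 4.43 under B87+DMKG+Nutlin-3. KLF6 is positive in every treatment without Rita, at 0.18 under B87 and 0.20 under Nutlin-3 (neither called), and higher where DMKG was given.

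DMKG alone raised most of the members. Compared with Control, 6 of the 7 were called, all higher, at a limma adjusted p under 0.05; over all rows 41.4% were called, 19.6% higher and 21.8% lower. KLF2 averaged 3157 ± 1258 normalized reads under DMKG and 321 ± 68.9 in Control (SD, n = 4 each), a log2 difference of 3.22 ± 0.29 (SE; adjusted p = 2.93e-10). KLF4 rose by 2.08 ± 0.19 (adjusted p = 5.79e-10) and KLF6 by 1.78 ± 0.12 (adjusted p = 1.05e-12). Smaller rises were those of KLF11 (0.86 ± 0.20, adjusted p = 0.000721), KLF5 (0.70 ± 0.15, adjusted p = 0.000348) and KLF10 (0.41 ± 0.08, adjusted p = 0.000203). KLF9 was not called, with a log2 difference of 0.15 and a 95% interval of -0.22 to 0.53 (adjusted p = 0.533). The 6 called members did not overlap Control, against 39.6% of all rows.

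The 4 DMKG libraries fell into pairs for some members and not for others. KLF4 had 16752.5 and 16687 normalized reads in DMKG replicates 3 and 4, and 6722 and 7898 in replicates 1 and 2. Replicates 3 and 4 had 2.29 times the KLF4 level of replicates 1 and 2, 1.93 times the KLF2 level and 1.67 times the KLF9 level, but 0.977 times the KLF5 level. The same ratio was 1.34 for KLF11, 1.26 for KLF6 and 1.18 for KLF10. KLF2 was graded rather than paired, at 1601, 2705, 3936 and 4388 in replicates 1 to 4. KLF9 had 325 and 357 in replicates 3 and 4, above all Control libraries, and 189 and 218 in replicates 1 and 2, of which the lower lay below all Control libraries and the other among them. With replicates 3 and 4 left out, the 6 members were still called: the log2 difference from Control was 2.72 for KLF2, 1.48 for KLF4 (against 2.68 without replicates 1 and 2) and 1.61 for KLF6. KLF9 read -0.22 without replicates 3 and 4 and 0.53 without replicates 1 and 2. The split was seen in these same values, so the libraries left out set these 2 values, and no p-value is given for them. Other fits without a pair show only how a call depends on these libraries, and are given without a p-value too. Over all rows tested, replicates 3 and 4 also differed from each other. Their chi-square per degree of freedom was 54.1, against 7.58 for replicates 1 and 2 and 60.2 to 80.3 between the pairs. What set the libraries apart was not tested.

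**Figure D3:**
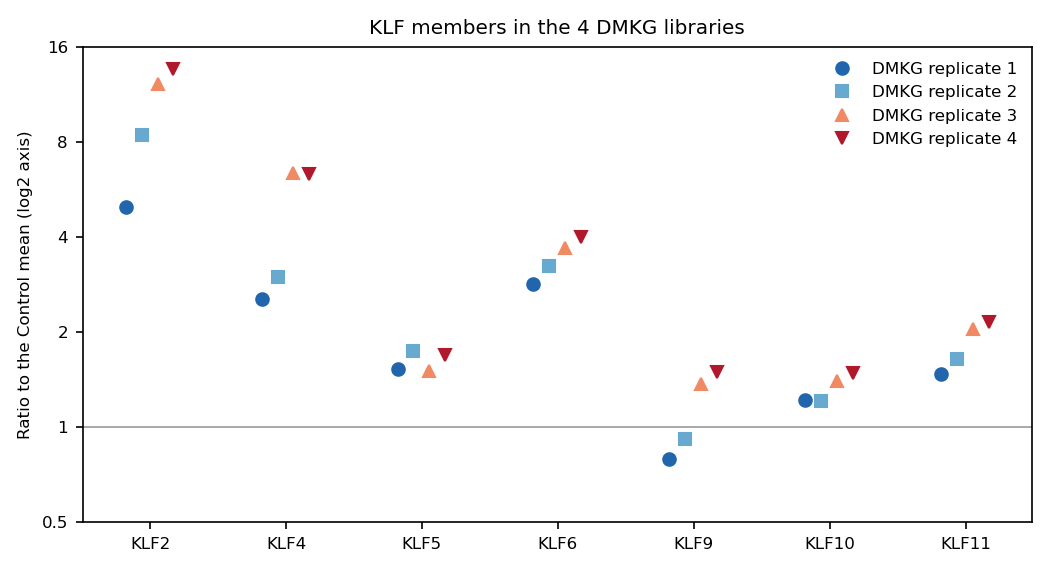
Level of each KLF member in the 4 DMKG libraries as a ratio to the Control mean (log2 axis). Replicates 3 and 4 lie well above replicates 1 and 2 for KLF4 and KLF9, and less far above them for KLF6, KLF10 and KLF11. KLF2 climbs in steps from replicate 1 to replicate 4, and for KLF5 the replicates are mixed.

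B87 alone left no member called, where 0.0431% of all rows were called, 0.0308% higher and 0.0123% lower. With limma, 1 of the 7 had an unadjusted p under 0.05, and edgeR and DESeq2 on whole reads also called 0. That member was KLF2, with a log2 difference of 0.97 ± 0.29 from Control (unadjusted p = 0.00236, adjusted p = 0.443); 3 of the 4 B87 libraries lay above every Control library, and the lowest, 303, lay among them. KLF5 was the single member whose B87 and Control libraries did not overlap, as for 7.09% of all rows, with 1771 ± 131 in B87 and 1459 ± 135 in Control (SD, n = 4 each; adjusted p = 0.95).

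Joined to DMKG, B87 went with lower levels of several members than DMKG gave alone. In B87+DMKG against Control 6 of the 7 were called, 5 higher and 1 lower, where 61.0% of all rows were called, 30.2% higher and 30.8% lower. The groups did not overlap for 5 of the 7, as for 51.9% of all rows, and nothing is read from these counts. KLF6 rose by 2.23 ± 0.12 (adjusted p = 2.71e-15), KLF2 by 2.11 ± 0.29 (adjusted p = 3.2e-07) and KLF4 by 1.23 ± 0.19 (adjusted p = 2.87e-06). KLF9, a hormone-induced member, fell by 1.10 ± 0.18 on the log2 scale (adjusted p = 7.63e-06): its libraries had 129.8, 82.7, 135 and 101 normalized reads in B87+DMKG, against 258, 206, 217 and 270.1 in Control. KLF10 rose by 0.33 ± 0.08 (adjusted p = 0.00101). The KLF5 rise of 0.34 ± 0.15 was near the threshold (adjusted p = 0.0455), its groups overlapped, and it was not called when any 1 of 6 libraries was left out, namely Control replicates 2, 3 and 4 and B87+DMKG replicates 1, 2 and 3, with adjusted p between 0.0507 and 0.173. KLF11 was not called (-0.33 ± 0.20, adjusted p = 0.143), but was with quantile normalization, at -0.60 (adjusted p = 0.0085).

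Directly against DMKG, 6 members were called in B87+DMKG, 5 lower and 1 higher, where 60.1% of all rows were called, 29.3% lower and 30.8% higher. The groups did not overlap for 3 of the 7, as for 45.6% of all rows. KLF9 fell by 1.25 ± 0.18 (adjusted p = 1.01e-06), KLF11 by 1.19 ± 0.20 (adjusted p = 5.4e-06), KLF2 by 1.11 ± 0.29 (adjusted p = 0.00157) and KLF4 by 0.85 ± 0.19 (adjusted p = 0.000423) on the log2 scale. KLF6 went up instead, by 0.46 ± 0.12 (adjusted p = 0.00206), at 4246 ± 239 in B87+DMKG and 3113 ± 454 in DMKG (SD, n = 4 each). Without DMKG replicates 3 and 4, 3 members were called rather than 6: KLF2 read -0.61 and KLF4 -0.25. Those replicates had the higher KLF2 and KLF4 levels, so leaving them out shrinks these falls by construction. Without DMKG replicates 1 and 2, which had the lower KLF6 levels, KLF6 read 0.29 and was not called. The KLF5 fall of 0.35 ± 0.15 (adjusted p = 0.0423) also rested on single libraries, reading -0.21 without B87+DMKG replicate 4 (adjusted p = 0.221).

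Relative to the sum of the separate B87 and DMKG differences on the log2 scale, the combination gave less of 5 members and more of none, where 48.8% of all rows were called, 24.1% lower and 24.6% higher. KLF2 lay -2.08 ± 0.41 from the sum (adjusted p = 0.00012), KLF11 -1.32 ± 0.28 (adjusted p = 0.000247), KLF9 -1.12 ± 0.26 (adjusted p = 0.000752), KLF4 -1.11 ± 0.28 (adjusted p = 0.00135) and KLF5 -0.63 ± 0.21 (adjusted p = 0.0138). KLF6 was not called, at 0.28 with a 95% interval of -0.08 to 0.64, nor was KLF10. Without DMKG replicates 3 and 4 the KLF4 value was -0.51 and the KLF2 value -1.58, both still called, and the KLF6 value was 0.45. Those replicates had the higher KLF6 levels, so leaving them out raises the KLF6 value by construction.

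Nutlin-3 alone changed the members modestly apart from KLF11. Against Control 5 of the 7 were called, 4 higher and 1 lower, where 39.1% of all rows were called, 18.5% higher and 20.7% lower. These 5 did not overlap Control, as for 41.9% of all rows. KLF11 had 78.1, 70.6 and 31.4 normalized reads under Nutlin-3, against 189, 146, 146 and 172 in Control, and fell by 1.52 ± 0.21 on the log2 scale (adjusted p = 1.24e-06). No other treatment brought KLF11 below 90.7 in any library. KLF2 rose by 1.03 ± 0.31 (adjusted p = 0.00991), KLF9 by 0.59 ± 0.20 (adjusted p = 0.0182), KLF10 by 0.54 ± 0.09 (adjusted p = 1.6e-05) and KLF5 by 0.54 ± 0.16 (adjusted p = 0.00776). KLF6 (0.20 ± 0.13) and KLF4 (0.12 ± 0.21) were not called. Without Nutlin-3 replicate 2, 3 members were called, since KLF5 (0.46, adjusted p = 0.0538) and KLF9 (0.54, adjusted p = 0.0744) were lost; KLF5 was also lost without Nutlin-3 replicate 3 (adjusted p = 0.0535), KLF9 without Control replicate 2 (adjusted p = 0.0545), and KLF6 was called at 0.38 without Nutlin-3 replicate 1 (adjusted p = 0.0264).

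Rita alone gave a different set of changes. Of the 7, 4 rose and 1 fell against Control, where 25.8% of all rows were called higher and 26.3% lower, 52.1% in all. These 5 did not overlap Control, as for 53.0% of all rows, and nothing is read from these counts. KLF4 had 6443, 6467, 6098.5 and 4980.05 normalized reads under Rita, and rose by 1.19 ± 0.19 (adjusted p = 6.98e-06). KLF5 had 3028, 2731, 2690.4 and 4354, and rose by 1.11 ± 0.15 (adjusted p = 2.73e-07). KLF11 rose by 0.94 ± 0.20 (adjusted p = 0.00017) and KLF10 by 0.59 ± 0.08 (adjusted p = 7.15e-07). KLF6 fell by 1.05 ± 0.12 on the log2 scale (adjusted p = 2.84e-08), with 447, 414, 392 and 497 normalized reads under Rita, against 961, 892, 838 and 916 in Control. KLF2 was not called (-0.58 ± 0.29, adjusted p = 0.0954), although it was in a fit of the 2 groups alone (adjusted p = 0.00825) and at -0.76 with the same total in every library (adjusted p = 0.0294).

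Adding Rita to B87+DMKG moved all 7 members, 5 up and 2 down, where 67.3% of all rows were called, 33.1% higher and 34.2% lower. KLF6 had 779, 712, 696 and 591 normalized reads in B87+DMKG+Rita, against 4402, 4312, 3892 and 4379.6 in B87+DMKG, and fell by 2.62 ± 0.12 on the log2 scale (adjusted p = 2.98e-17). KLF2 fell by 1.31 ± 0.29 (adjusted p = 0.00024). KLF9 rose by 1.39 ± 0.18 (adjusted p = 1.24e-07), KLF11 by 1.31 ± 0.20 (adjusted p = 9.09e-07), KLF5 by 1.00 ± 0.15 (adjusted p = 7.26e-07), KLF4 by 0.88 ± 0.19 (adjusted p = 0.000219) and KLF10 by 0.63 ± 0.08 (adjusted p = 9.87e-08). The groups did not overlap for any of the 7, as for 59.3% of all rows. With the same total in every library the median of all rows in this comparison shifted by -0.24 on the log2 scale.

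**Figure D4:**
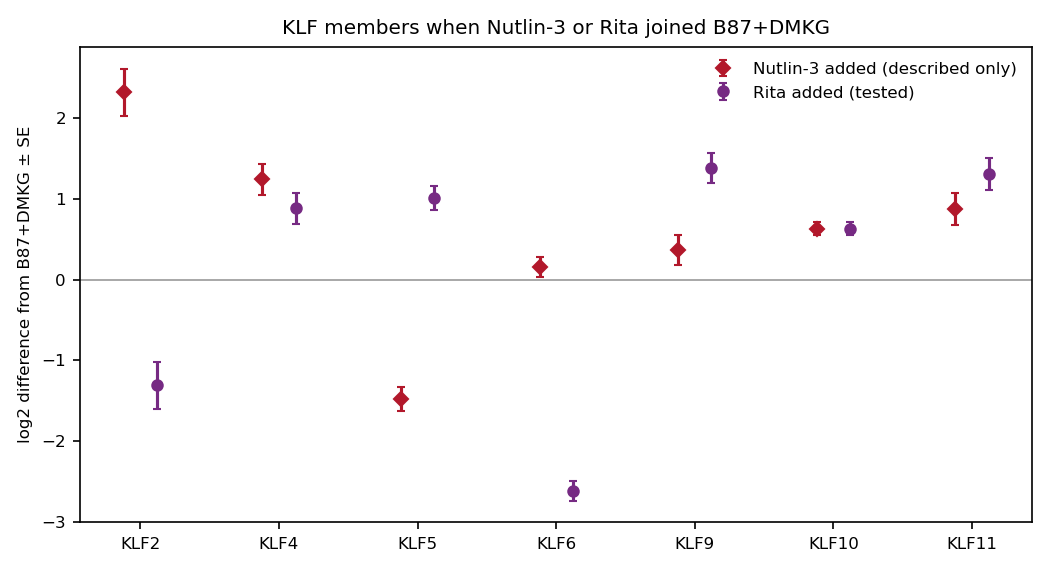
Log2 difference from B87+DMKG ± SE (y axis) of each KLF member when Nutlin-3 or Rita was added. KLF2 and KLF5 lie on opposite sides of 0 under the 2 compounds, with KLF2 at 2.32 and -1.31 and KLF5 at -1.47 and 1.00, and KLF10 is level at 0.63.

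Against Control, B87+DMKG+Rita left 5 members higher and 1 lower, where 60.1% of all rows were called, 29.4% higher and 30.7% lower. The groups did not overlap for 5 of the 7, as for 63.9% of all rows. KLF4 had 10883, 11391, 11709 and 11240.3 normalized reads, and rose by 2.11 ± 0.19 (adjusted p = 1.19e-10), and KLF5 rose by 1.35 ± 0.15 (adjusted p = 4.46e-09). KLF11 and KLF10 rose by 0.97 ± 0.20 (adjusted p = 8.45e-05) and 0.96 ± 0.08 (adjusted p = 2.92e-11). KLF6 fell by 0.38 ± 0.12 (adjusted p = 0.00881), a call lost with quantile normalization (-0.16, adjusted p = 0.29). KLF2 rose by 0.80 ± 0.29 (adjusted p = 0.0193) with overlapping groups, and was not called with the same total in every library (0.54, adjusted p = 0.108), without Control replicate 1 (adjusted p = 0.0779) or without B87+DMKG+Rita replicate 2 or 4 (adjusted p = 0.0584 and 0.0655). The effect of Rita itself differed with B87+DMKG present for 2 members, 1 lower and 1 higher, where 48.6% of all rows were called, 24.4% lower and 24.2% higher. The Rita difference of KLF6 was lower by -1.57 ± 0.17 (adjusted p = 2.28e-08) and that of KLF9 higher by 1.10 ± 0.26 (adjusted p = 0.000899). For KLF4 and KLF5 the 95% intervals of this difference were -0.87 to 0.26 and -0.53 to 0.33.

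Side by side, the Nutlin-3 and Rita triple treatments are given again as a description: 6 of the 7 members did not overlap, as for 50.9% of all rows, and KLF10 did. KLF10 had 6763, 7389.7, 6365 and 7746 normalized reads in B87+DMKG+Nutlin-3, against 7385, 7454, 6654 and 6741 in B87+DMKG+Rita, a log2 difference of 0.00 with a 95% interval of -0.17 to 0.17. KLF4 differed by 0.36 with a 95% interval of -0.04 to 0.76. KLF2 was 12.4-fold and KLF6 6.82-fold higher with Nutlin-3 than with Rita. KLF5 had 680.0, 792, 491 and 736 with Nutlin-3, against 4068, 3950.5, 3364 and 3496 with Rita, a log2 difference of -2.48 ± 0.15.

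Of the other KLF genes, 10 of 11 listed had a row and 7 passed the filter. DMKG raised KLF3, a CTBP-binding repressor, by 1.73, and KLF7, a factor of neuronal development, by 1.61. Of the 7 tested 3 rose and 2 fell, where 19.6% of all rows rose and 21.8% fell. KLF3 had 4.90 times its Control mean in DMKG replicates 3 and 4 and 2.19 times in replicates 1 and 2, and KLF13 2.19 and 1.05 times. Without replicates 3 and 4, the pair with more KLF13, its log2 difference read 0.07 and was not called. Rita lowered KLF7 to 39.2 ± 13.7 normalized reads, against 139 ± 21.8 in Control (SD, n = 4 each), a log2 difference of -1.87. It lowered KLF12 to 13.2 ± 4.36, against 73.1 ± 3.88, a log2 difference of -2.43. Under Rita 3 of the 7 fell while 1, KLF16, rose (0.87), where 26.3% of all rows fell and 25.8% rose, 52.1% in all. The fall of KLF13 (-0.36, adjusted p = 0.0482) was lost when any 1 of 7 libraries was left out. These were all 4 Control libraries and Rita replicates 1, 2 and 3, with adjusted p up to 0.122. KLF13 averaged 1930 ± 196 in B87+DMKG+Nutlin-3 and 5403 ± 195 in Control, a described log2 difference of -1.49, in the direction of KLF5 and not of KLF2. With Rita in place of Nutlin-3 it averaged 3677 ± 49.0, and fell by 0.55 against Control. The rows of KLF3, KLF7, KLF12, KLF13 and KLF16 overlap 2 to 9 other rows of the table, and whether counting used the strand is not given in the sources used here, so their reads may include those of neighbours.

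**Figure D5:**
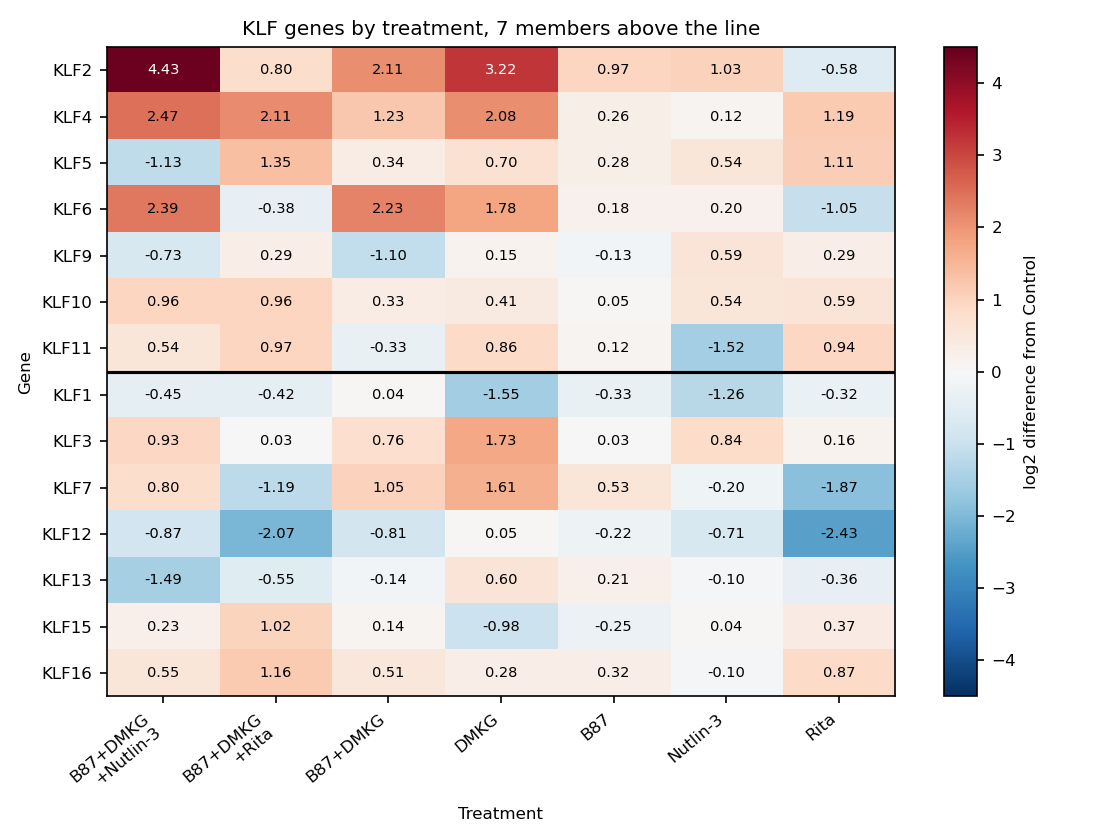
Log2 difference from Control of the 14 tested KLF genes under the 7 treatments, with the 7 members above the line. KLF2 reaches 4.43 under B87+DMKG+Nutlin-3, where KLF13 reads -1.49, and KLF12 reads -2.43 under Rita.

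The kinases and MEF2 factors that act upstream of KLF2 in endothelium were tested as a list of 8, of which 6 had a row and passed the filter. Under DMKG 2 rose and 1 fell, where 19.6% of all rows rose and 21.8% fell, with a list median of 0.11 and a median of 0.03 over all rows. MAPK7, which encodes ERK5, rose by 1.46 ± 0.10 (adjusted p = 9.94e-13), at 3044 ± 384 under DMKG and 1106 ± 101 in Control (SD, n = 4 each), and MEF2D rose by 0.80 ± 0.12 (adjusted p = 2.55e-06). The gene that fell was MAP2K5, which encodes MEK5, with a log2 difference of -0.36 ± 0.10 (adjusted p = 0.00578). B87+DMKG raised MAPK7 by 0.82 ± 0.10 (adjusted p = 4.19e-08), and 2 of the 6 rose and 2 fell, near the 30.2% and 30.8% of all rows. The 2 that fell were MAP2K5 (-0.51 ± 0.10, adjusted p = 7.41e-05) and MEF2A (-0.33 ± 0.13, adjusted p = 0.0325). Rita lowered MEF2C by 1.25 ± 0.14, to 578 ± 121 normalized reads against 1358 ± 107 in Control, and 2 rose and 3 fell, where 25.8% and 26.3% of all rows did. The 2 that rose were MAPK7 (0.68 ± 0.10, adjusted p = 1.68e-06) and MEF2D (0.49 ± 0.12, adjusted p = 0.00102). Nutlin-3 raised 3 of the 6, where 18.5% of all rows rose, among them MEF2D by 0.74 ± 0.13 (adjusted p = 3.24e-05).

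Among 12 tested partners and ubiquitin ligases of KLF proteins, Rita lowered 7 and raised none, with a median of -0.52, where 26.3% of all rows fell and their median was 0.03. B87+DMKG lowered 4 and raised 1, near the 30.8% of all rows that fell and with a median of -0.11. WWP1, a ligase that targets KLF2 and KLF5, averaged 646 ± 125 normalized reads in B87+DMKG and 1879 ± 86.9 in Control (SD, n = 4 each), a fall of 1.56 ± 0.12 on the log2 scale (adjusted p = 7.99e-12), and fell by 1.09 ± 0.12 under Rita (adjusted p = 1.67e-08). FBXW7, the substrate-binding part of another ligase of KLF2 and KLF5, rose by 1.31 ± 0.13 under Nutlin-3 (adjusted p = 1.89e-09) and fell by 1.16 ± 0.12 when Rita joined B87+DMKG (adjusted p = 5.45e-10). In that last comparison SIN3A, the corepressor of KLF10 and KLF11, fell by 1.58 ± 0.12 (adjusted p = 1.13e-12), and 6 of the 12 fell and 1 rose, where 34.2% of all rows fell and 33.1% rose.

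Of 12 tested genes described elsewhere as KLF targets, DMKG raised 3 and lowered 2, near the 19.6% and 21.8% of all rows. CCND1, the cyclin D1 gene, fell by 1.61 ± 0.10 (adjusted p = 5.32e-14). B87+DMKG raised 1 and lowered 4, where 30.2% of all rows rose and 30.8% fell. CDKN1B, a cell-cycle inhibitor gene, fell by 1.44 ± 0.09 there (adjusted p = 6.95e-14). When Rita joined B87+DMKG, 8 rose and 1 fell against B87+DMKG, where 33.1% of all rows rose and 34.2% fell. The list median in that comparison was 0.63, beside 0.00 over all rows. Against Control, B87+DMKG+Rita raised 5 and lowered 2, where 29.4% rose and 30.7% fell. CDKN1A, which p53 also induces, rose by 4.25 ± 0.11 under Nutlin-3 (adjusted p = 6.94e-24) and by 2.73 ± 0.10 under Rita (adjusted p = 1.36e-19); KLF4, described as acting at this gene, was called under Rita and not under Nutlin-3.

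Across the 31 libraries, log2 levels of KLF2 and KLF6 ran most closely together (Pearson r = 0.881), then those of KLF4 and KLF10 (0.731) and KLF2 and KLF4 (0.657), and KLF6 and KLF9 ran most opposed (-0.661), then KLF2 and KLF5 (-0.606). These are descriptions over libraries that share 8 treatments and the authors' scaling. Among 11150 single-gene rows with a mean of at least 50, KLF2 was most like TNIP1 (0.930), EZR (0.907), DENND1A (0.902), MARK4 (0.900) and DLGAP1 (0.899). KLF4 was most like RFNG (0.954), KLF6 most like LIG3 (0.960), KLF5 most like ZXDC (0.953), KLF11 most like LLGL1 (0.923), KLF10 most like SNAI2 (0.921) and KLF9 most like TNFRSF10B (0.873).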

How the data were processed

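The 31 libraries of H460 poly(A) RNA fall into 8 groups, with groups and replicate numbers taken from the sample titles. Per the labels, a stranded TruSeq mRNA kit made the libraries. STAR 2.4.0, SAMtools, Picard, FastQC and DESeq2 are named in the submitters' processing notes. The notes name mm10, whereas the table's header names hg19 and its genes are human. Each deposited signal value is a gene's read count after the authors' DESeq2 scaling of that library, per the labels. Within a library 100% of values lay within 0.1 of a whole number when divided by that library's smallest unit, which gave whole reads for the alternatives and between 33441414 and 82493612 reads per library.

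Rows with a mean of at least 10 (16259) were tested with limma 3.58.1 in R 4.3.3 on log2(value + 1), all samples in 1 fit by group, with eBayes and trend, and p-values were adjusted by Benjamini and Hochberg's method across all of them, with calls under 0.05. A fold change is on the log2(value + 1) scale. No within-group pair of libraries agreed within sampling noise (lowest chi-square per degree of freedom 6.88 over 45 pairs). In DMKG against Control, edgeR on the whole reads called 6865 genes and limma 6725. Fits were tested on simulated data. Alternatives were pseudocounts of 0.5 and 5, no filter, a mean of at least 50, quantile normalization, equal totals, DESeq2 1.42.0 or edgeR 4.0.16 on whole reads, a replicate block, a fit of the compared groups alone, each library left out, and DMKG replicates 1 and 2 or 3 and 4 left out.

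The members, gene lists, tests and naming rule were chosen with earlier results of these data known. The rule names the 7 members, all tested KLF and SP genes, up to 4 called genes per list and comparison with the largest change, and for each member the rows with the highest Pearson r. Promoter windows are RefSeq's on GRCh38.p14 and exonic lengths GENCODE v29's. Not analysed here were proteins, isoforms and the promoter of KLF10.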

Additional observations from a re-analysis of the deposited data

How the results depend on the processing

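The count of members called stayed within 1.5 times the reported count under the alternatives run, except for 2 counts. The count in B87+DMKG against DMKG was 3 without DMKG replicates 3 and 4. The count in Nutlin-3 against Control ranged between 3 and 6 over fits with 1 library left out. Of the tested member values, those whose sign turned had not been called. KLF10 in B87 against Control read -0.0094 to 0.089 with 1 library left out, and KLF9 in DMKG against Control -0.22 without DMKG replicates 3 and 4. KLF4 in Nutlin-3 against Control read -0.013 with equal totals and -0.050 to 0.24 with 1 library left out. KLF10 in B87+DMKG against DMKG read 0.012 with quantile normalization, 0.021 with equal totals and 0.045 without DMKG replicates 3 and 4. In the effect of Rita with minus without B87+DMKG, KLF10 read -0.11 with quantile normalization, -0.021 with equal totals and -0.0085 to 0.11 with 1 library left out, and KLF5 -0.24 to 0.054. Among untested values, the effect of Nutlin-3 with minus without B87+DMKG read 0.21 for KLF9 with quantile normalization, against -0.23, and for KLF6 0.025 to 0.049 in 3 fits with 1 library left out, against -0.05. KLF10 in B87+DMKG+Nutlin-3 against B87+DMKG+Rita turned in 8 settings, reaching 0.11. Among list genes, KRT19 in B87+DMKG+Rita against B87+DMKG, called at 0.29, read -0.11 with quantile normalization. Of 1407 tested member values under an alternative, 33 lost a call, 8 gained 1 and 11 turned sign; of 672 untested ones, 26 moved beyond 1 SD and 12 turned sign. The cause of these turns was not tested. Equal totals moved the median of all rows by up to -0.25 on the log2 scale, in B87+DMKG+Rita against Control.

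Replicate numbers did not pair the samples: deviations from group means correlated with a mean r of -0.0084 over 105 same-numbered pairs and 0.0030 over 315 others. With the replicate number as a block the counts of members called did not move, for example 7 in B87+DMKG+Rita against B87+DMKG and 6 in DMKG against Control. Between groups that both hold replicates 1 to 4 a block cannot move the difference itself, only its error. With 3 or 4 libraries per group, small differences such as those of KLF5 and KLF9 near the threshold depend on single libraries.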

Other observations

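Genes of the immediate early response, which cells switch on within minutes of a stimulus and which include transcription factors, were tested as a list of 24. Against Control, DMKG raised 19 and lowered 1, where 19.6% of all rows rose, and B87+DMKG raised 18 and lowered 2, where 30.2% rose. Nutlin-3 raised 9 and lowered 4, where 18.5% rose and 20.7% fell. Rita raised 22 and lowered 1, where 25.8% rose, and B87+DMKG+Rita raised all 24, where 29.4% rose. EGR1, a zinc-finger factor of GC-rich DNA, averaged 33495 ± 3626 normalized reads in B87+DMKG and 374 ± 115 in Control (SD, n = 4 each), a rise of 6.54 ± 0.20 on the log2 scale (SE; limma adjusted p = 4.01e-21). Its rise against DMKG alone was 4.49 ± 0.20 (adjusted p = 1.11e-17), in the comparison in which KLF2 and KLF4 fell. The list median was 1.58 in B87+DMKG against Control, beside 0.00 over all rows.

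The early targets of TGF-β, the signal from which KLF10 and KLF11 took their first names, were tested as a list of 10. DMKG raised 5 and lowered 1 against Control, where 19.6% of all rows rose and 21.8% fell. Against Control, B87+DMKG raised 2 and lowered 6, where 30.2% rose and 30.8% fell, although KLF10 rose there. Rita raised 1 and lowered 5, where 25.8% rose and 26.3% fell, although KLF10 and KLF11 both rose. Nutlin-3 raised 2 and lowered 1, where 18.5% rose and 20.7% fell. B87+DMKG+Rita raised 3 and lowered 3, where 29.4% rose and 30.7% fell. B87+DMKG lowered 7 and raised 1 against DMKG, where 29.3% fell and 30.8% rose. Adding Rita to B87+DMKG raised 7 and lowered 2, where 33.1% rose and 34.2% fell, with TGIF1 up by 1.41 ± 0.09 (adjusted p = 1.11e-14).

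Of 4 tested SP genes, the closest relatives of the KLF family, SP6 averaged 45.3 ± 4.99 normalized reads under Rita and 4.47 ± 2.68 in Control (SD, n = 4 each). It averaged 49.5 ± 15.7 in B87+DMKG+Rita and at most 13.8 in every group without Rita. SP6 thus passed the filter of a mean of at least 10 through the groups given Rita. Its log2 difference of 3.22 between Rita and Control is therefore given without a p-value. SP2 averaged 2206 ± 452 in B87+DMKG and 1093 ± 177 in Control, and was called higher (adjusted p = 8.84e-07). The SP2 row overlaps 3 other rows of the table, so its reads may include those of neighbours.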
